A study of Mus musculus with 6 samples.

Results

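Interferon beta and the lambda interferons are secreted antiviral proteins. Interferon beta is the type I ligand that most cells make first, and it binds the receptor built from IFNAR1 and IFNAR2. The lambda, or type III, interferons bind IFNLR1 paired with IL10RB, a receptor found mainly on epithelial cells. Both receptors work through the kinases JAK1 and TYK2 and a transcription factor complex that holds STAT2 and IRF9 and switches on antiviral genes. Medullary thymic epithelial cells (mTEC), the epithelium that shows maturing T cells a sample of proteins from other organs, are a known source of both kinds of interferon in the thymus.

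The genes described here are Ifnb1, which encodes interferon beta, and Ifnl2 and Ifnl3, which encode the lambda interferons of the mouse. They are the 3 interferon ligand genes with substantial counts, of 22 ligand genes and pseudogenes among 43432 gene IDs. RNA sequencing libraries came from mTEC of C57BL/6 mice aged 4 weeks, 3 libraries from CopaE241K/+ mice (MUT) and 3 from Copa+/+ mice (WT). Copa codes for alpha-COP, a part of the coat on vesicles that go back from the Golgi to the endoplasmic reticulum, and the MUT mice carry 1 copy of the E241K allele. The series concerns thymic interferon and STING, the membrane adaptor of DNA sensing. The labels do not say whether a library is 1 mouse or a pool, so the p-values below measure the spread between libraries, part of which may be technical.

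Members were taken because of their counts in these same libraries. Their MUT and WT values are therefore a description and carry no test. The member with the fewest counts, Ifnl2, had 467 over the 6 libraries, and the next ligand gene below it, Ifna4, had 61.

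Library totals ran from 19934513 to 23366238 counts. The mTEC label was checked against 12 fixed markers, of which 11 were above 0 in every library. Aire, the regulator of antigen display, lay between 928.7 and 1563 CPM, and the exception was the chemokine gene Ccl21a, which was at 0 in 4 libraries. Of the 12, 0 were higher and 1 was lower in all MUT libraries, where the shares over all genes tested are 5.39% and 3.96%. That marker was the epithelial adhesion gene Epcam, with 417.8, 441.4 and 593.2 CPM in MUT libraries 1, 2 and 3 and 628.7, 641.0 and 751.2 CPM in WT libraries 1, 2 and 3. Its part in the interferon values was not tested. Copa itself measured 347.6 ± 43.6 CPM in MUT and 399.7 ± 151 CPM in WT (SD, n = 3 each), which does not check a single amino acid change.

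Ifnb1 (ENSMUSG00000048806) is a single-exon gene on the minus strand of chromosome 4, from 88522025 to 88522774 in GRCm38. Its promoter is the textbook case of a control region where interferon regulatory factors and NF-kappaB bind side by side, so the stretch that holds these letters is shown. It is chr4:88522866-88523024 on the minus strand, read 5′ to 3′ from RefSeq (GRCm38.p6), and ends 72 bases before the start site given there. Capitals mark matches on either strand to an interferon regulatory factor core, to an NF-kappaB-like motif and to the TATA box, which are spelled out after the sequence.
Ifnb1 promoter: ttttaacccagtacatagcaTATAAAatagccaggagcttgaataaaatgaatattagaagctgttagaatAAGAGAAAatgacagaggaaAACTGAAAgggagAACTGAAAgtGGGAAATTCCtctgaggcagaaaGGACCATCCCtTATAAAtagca

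The interferon regulatory factor core was searched as AANNGAAA. The NF-kappaB-like motif was GGGA, then any 4 bases, then CC. The TATA box was searched as TATAAA. The 300-base window of Ifnb1 held 3 matches to the first, 2 to the second and 2 to the third, with no overlap between different motifs. Of 32851 RefSeq windows of that length, 23.9% held the first, 20.7% the second and 13.6% the third, and 0.426% held all 3. AANNGAAA was chosen after the sequence was seen and after a longer form, GAAA repeated after any 2 bases (3.44% of windows), gave no match. The AP-1 motif, TGA and TCA around any base (7.81% of windows), and TGACGTCA (ATF/CRE, 1.79%) were not found in the Ifnb1 window. The Ifnl2 and Ifnl3 windows each held 2 matches to the NF-kappaB-like motif and none to the other motifs. In both genes the RefSeq start site is the first coding base, at 28510360 for Ifnl2 and 28522836 for Ifnl3, so those windows may not be where transcription starts.

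Ifnl2 (ENSMUSG00000059128, 28508836 to 28510455, minus strand) and Ifnl3 (ENSMUSG00000060747, 28522836 to 28524322, plus strand) lie beside each other on chromosome 7, with 5 exons each. Their coding sequences are 579 bases long and 97.06% identical, with 17 differing bases and an identical run of 166. The 90 bases below, coding positions 475 to 564 of the GENCODE M21 transcripts counted from the start codon, hold the most differences of any such stretch that starts on a codon, and capitals mark the 7 bases that differ.
Ifnl2: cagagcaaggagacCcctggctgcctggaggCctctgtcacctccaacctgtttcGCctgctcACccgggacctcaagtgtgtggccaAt
Ifnl3: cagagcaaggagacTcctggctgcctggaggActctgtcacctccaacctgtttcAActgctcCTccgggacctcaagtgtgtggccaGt

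Even so, 39.1% of all 50-base windows of the coding sequence were identical in Ifnl2 and Ifnl3, as were 25.3% of 75-base windows. How the authors' counting treated a read that fits both genes is not given in the sources used here. The separate values of Ifnl2 and Ifnl3 are therefore uncertain, and their sum is given beside them. No transcript of another gene shared a 50-base window with the coding sequence of Ifnb1, and no gene beyond the pair did so with Ifnl2 or Ifnl3.

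Ifnb1 was counted in every MUT library and in no WT library. The MUT libraries 1, 2 and 3 held 86, 510 and 139 counts, or 4.06, 24.4 and 5.02 CPM (counts scaled to the size of the library, with edgeR's TMM factors), and each WT library held 0. Groups did not overlap, and MUT library 2 held 6.02 times the CPM of the lowest MUT library. A count of 0 allows a level of up to 0.172, 0.141 and 0.132 CPM in WT libraries 1, 2 and 3, from a floor of 3 counts per library that covers counting error only. Pooled over libraries, Ifnb1 was 215.5-fold higher in MUT when WT was set at a floor of 3 counts for the whole group. This is a lower bound for counting error only, and the spread between libraries is not part of it. That bound was 94.2-fold without MUT library 2, 141-fold without WT library 2 and 136-fold without WT library 3.

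**Figure D1:**
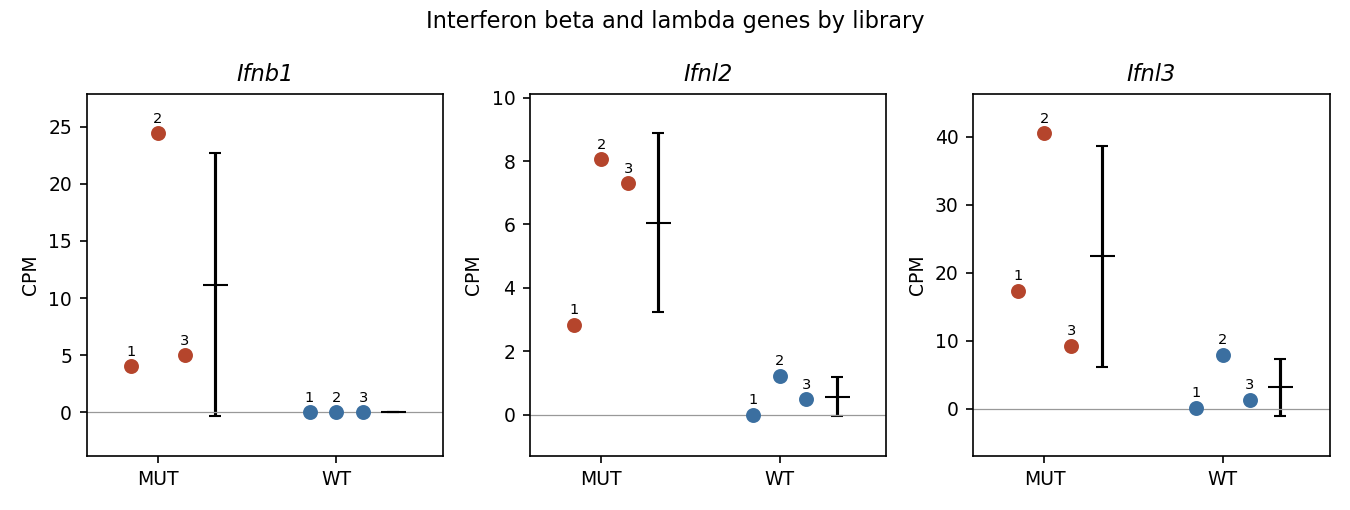
CPM of Ifnb1, Ifnl2 and Ifnl3 in each library (points, numbered by replicate), with MUT left of WT; the black dash and bar beside each genotype are the mean and SD of 3 libraries. For each gene the lowest MUT library lies above the highest WT library, and the gap is narrowest for Ifnl3, with 9.29 CPM in MUT 3 against 7.96 CPM in WT 2.

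An all-or-none pattern of this kind was uncommon in the table. Of 28820 genes with at least 1 count, 163 (0.566%) were counted in all MUT libraries and in no WT library, and 23 (0.0798%) showed the opposite. Ifnb1 ranked first of the 163 by its lowest MUT count, 86. It was chosen on these counts, so nothing is read from its rank or from its place in this set. Next were Lct, the intestinal lactase gene, with a lowest MUT count of 64, and Dhrs2, a dehydrogenase gene, with 55. Genes with at least 1 count numbered 19329, 20188 and 24774 in MUT libraries 1, 2 and 3, and 17174, 19558 and 21755 in WT libraries 1, 2 and 3.

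Ifnl3 was the most counted of the 3 genes in every MUT library. Its counts were 368, 847 and 257 in MUT libraries 1, 2 and 3, or 17.4, 40.6 and 9.29 CPM, against 2, 169 and 30 counts in WT libraries 1, 2 and 3, or 0.115, 7.96 and 1.32 CPM. The lowest MUT library was 1.17 times the highest WT library, so the genotypes were separate by a narrow margin that rests on MUT library 3 and WT library 2. Ifnl2 had 60, 168 and 202 counts in the MUT libraries, or 2.83, 8.05 and 7.30 CPM, against 0, 26 and 11 counts in the WT libraries, or 0, 1.22 and 0.484 CPM. Here the lowest MUT library was 2.31 times the highest WT library.

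Summed, Ifnl2 and Ifnl3 gave 20.2, 48.6 and 16.6 CPM in MUT libraries 1, 2 and 3, against 0.115, 9.18 and 1.80 CPM in WT libraries 1, 2 and 3. WT library 1, with 2 counts, lay below the floor of 3, while WT library 2 came within 1.81-fold of the lowest MUT library. The pooled ratio of the sum was 7.03 in favour of MUT, 4.68 without MUT library 2 and 25.45 without WT library 2. For Ifnl2 alone the ratio was 10.2, or 22.5 without WT library 2. Ifnl3 alone gave 6.44, which became 3.90 without MUT library 2 and 26.5 without WT library 2.

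Over all 17172 genes tested, 5.39% had all 3 MUT libraries above all 3 WT libraries, and 3.96% had all 3 below. The 3 interferon genes belong to the first set, but they were chosen on these counts and nothing is read from that.

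WT cells thus held lambda transcripts without any count of Ifnb1. In WT library 2 the lambda pair had 195 counts and Ifnb1 had 0, which allows Ifnb1 a share of at most 1.87% of the counts of the 3 genes (exact 95% binomial limit, counting error only). In MUT libraries 1, 2 and 3 that share was 16.7% (13.6 to 20.2), 33.4% (31.1 to 35.9) and 23.2% (19.9 to 26.8). In WT library 3, with 41 lambda counts, the limit was 8.60%. WT library 1, with 2 counts in all, sets no useful limit.

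The balance between Ifnl2 and Ifnl3 also varied among libraries. Ifnl3 took 86.0% (82.3 to 89.1), 83.4% (81.0 to 85.7) and 56.0% (51.3 to 60.6) of the pair's counts in MUT libraries 1, 2 and 3. In WT libraries 2 and 3 it took 86.7% (81.1 to 91.1) and 73.2% (57.1 to 85.8). MUT library 3 had the lowest share, and Ifnl3 was also lowest there among the MUT libraries. The spread of this share between libraries has no test, and it rests on the uncertain split of reads between the genes. Reads are not independent molecules after amplification, and the intervals cover counting error only.

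**Figure D2:**
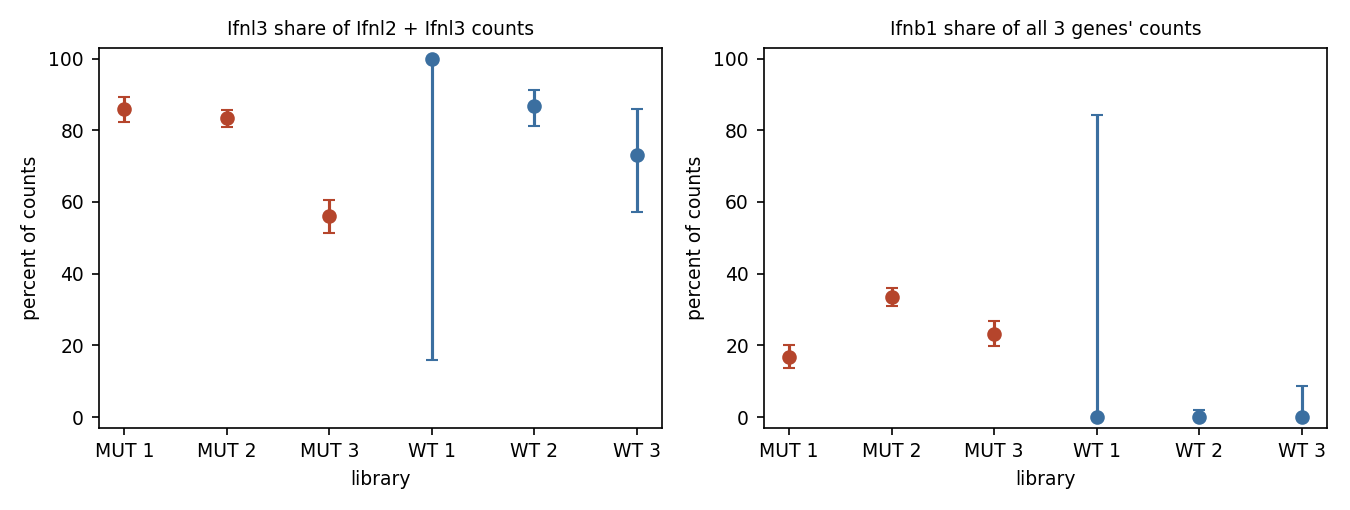
Left, Ifnl3 as a percent of the summed Ifnl2 and Ifnl3 counts; right, Ifnb1 as a percent of the counts of all 3 genes, in each library (MUT left, WT right). Bars are exact 95% binomial intervals; on the left MUT 3 is lowest at 56.0%, and on the right every MUT library is above 16% while each WT library is at 0.

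Divided by exon length (750 bases for Ifnb1, 702 for Ifnl2 and 582 for Ifnl3), levels can be set between genes only roughly. Of these bases 546, 579 and 579 are coding, so the Ifnl3 model holds little or no untranslated sequence. The split of reads between Ifnl2 and Ifnl3 is also uncertain. Ifnl3 averaged 38.5 ± 27.9 CPM per kb in MUT and 5.38 ± 7.26 in WT. Ifnb1 averaged 14.9 ± 15.3 CPM per kb in MUT and was at 0 in WT. Ifnl2 averaged 8.63 ± 4.02 CPM per kb in MUT and 0.811 ± 0.878 in WT (SD, n = 3 each). In MUT library 3, however, the order was Ifnl3 at 15.96, Ifnl2 at 10.4 and Ifnb1 at 6.70 CPM per kb, and the SDs are as wide as the gaps between neighbours in the order.

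The other 19 interferon ligand genes had few or no counts in both genotypes. None passed the filter on low counts, 11 were at 0 in all 6 libraries, and together they had 124 counts in MUT and 57 in WT. For Ifna4 there were 32 counts in MUT library 2 and 29 in MUT library 3, and 0 in MUT library 1 and in WT. Ifna2 had 35 counts, Ifna11 7 and the pseudogene Ifna-ps1 5, all in MUT library 3. Ifna5 had 2 counts in MUT library 1 and the keratinocyte interferon gene Ifnk had 1 in MUT library 3. Ifna6 had 45 counts in WT library 3 and 0 elsewhere.

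The interferon alpha genes are close copies of each other, so their reads could be divided among them or left uncounted. How reads that fit several genes were treated is not given, so low counts do not show that these genes were silent. The interferon gamma gene Ifng, a T cell and natural killer cell cytokine gene, had counts of 0, 2 and 11 in MUT libraries 1, 2 and 3 and of 0, 10 and 2 in WT libraries 1, 2 and 3. Of the 16 other single-exon ligand genes on chromosome 4, none was counted in all 3 MUT libraries.

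**Figure D3:**
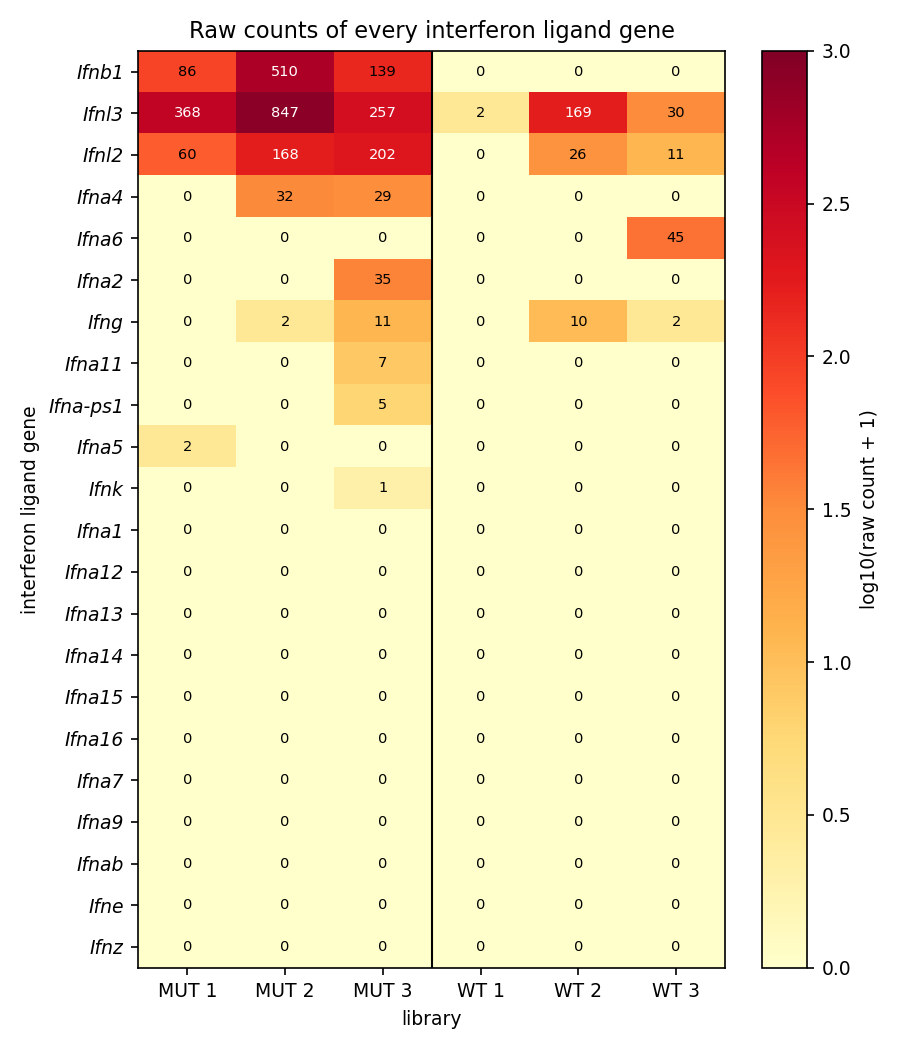
Raw counts of all 22 interferon ligand genes and pseudogenes (rows) in the 6 libraries (columns, MUT left of WT), with colour on a log10 scale of count + 1. Ifnb1, Ifnl3 and Ifnl2 fill the top rows, with up to 847 counts in a MUT library, while no other gene exceeds 45.

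Genes around each locus are described beside the members, and an effect of position was not tested. Within 250 kb of Ifnb1 lie 27 other genes and pseudogenes, mostly of the interferon alpha cluster, of which 10 had any count and 2 were tested. These were Focad, with a log2 fold change of -1.62 (SE 1.39), and the ubiquitin ligase adaptor gene Klhl9, with -0.13 (SE 0.55). Around the lambda pair 21 of 27 genes were tested, 2 had all MUT libraries above WT, 1 had all below (5.39% and 3.96% of all genes tested), and the median log2 fold change was 0.03. The nearest tested gene on the side of Ifnl3 was Sycn, a pancreatic granule gene, with 31.9, 0 and 0.795 CPM in MUT libraries 1, 2 and 3 and 0.0575, 3.15 and 1.28 CPM in WT libraries 1, 2 and 3. On the side of Ifnl2 the nearest was Lrfn1, a synaptic adhesion gene, which did not exceed 1.23 CPM. No neighbour passed edgeR's quasi-likelihood test with Benjamini-Hochberg adjustment at 0.05.

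That test, run over all genes, called 0 of 17172 (0%), with 597 (3.48%) at an unadjusted p under 0.05, of which 1.62% of genes were higher and 1.85% lower in MUT. A fitted log2 fold change above 0 was given to 49.4% of genes. DESeq2 called 116 of the 18448 genes to which it gave an adjusted p (0.629%). edgeR without the filter on low counts called 73 of 28820 (0.253%). The spread between libraries was large, with a median standard error of 1.03 against a median absolute log2 fold change of 0.63. Every edgeR adjusted p of the genes named below was 0.999875.

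Receptor genes did not pass the test in either direction (0 of 4). Ifnar1 measured 53.8, 60.0 and 87.0 CPM in MUT libraries 1, 2 and 3, and 160.5, 60.4 and 58.4 CPM in WT libraries 1, 2 and 3, a log2 fold change of -0.48 (SE 0.51). Ifnar2 averaged 39.7 ± 14.7 CPM in MUT and 49.1 ± 42.9 CPM in WT (SD, n = 3 each), a log2 fold change of -0.31 (SE 0.68). Il10rb, the shared chain of the lambda receptor, averaged 25.5 ± 17.2 CPM in MUT and 25.1 ± 17.2 CPM in WT.

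Ifnlr1, the chain that makes the receptor specific for lambda interferons (chromosome 4, 135686287 to 135708181), split the libraries by number rather than by genotype; source names of same-numbered libraries also end alike. It measured 48.5, 0 and 4.99 CPM in MUT libraries 1, 2 and 3, and 45.7, 0 and 5.59 CPM in WT libraries 1, 2 and 3. Its log2 fold change was 0.06 (SE 1.96). The libraries with no Ifnlr1 count were thus those with the highest Ifnl2 plus Ifnl3 level of their genotype.

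Signalling genes downstream of both receptors did not pass either (0 of 4), with a median log2 fold change of -0.04 against -0.01 over all genes tested. Tyk2 (0.63, SE 0.54) and Irf9 (0.21, SE 0.45) had fitted log2 values above 0. The kinase gene Jak1 (-0.28, SE 0.34) and Stat2 (-0.46, SE 0.56) had values below 0. Stat2 rested on WT library 1, at 415.5 CPM, against 145.7 and 65.3 CPM in WT libraries 2 and 3.

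Among 22 genes of the sensing routes and transcription factors that switch Ifnb1 on, 0 passed, 9 were fitted above 0, and -0.02 was the median log2 fold change. Of the 22, 1 had its lowest MUT library above its highest WT library and 1 had the opposite order, shares near the 5.39% and 3.96% of all genes tested. The first was Ifih1, which encodes the double-stranded RNA sensor MDA5 and is itself induced by interferon. Ifih1 averaged 209.5 ± 48.7 CPM in MUT and 98.9 ± 35.6 CPM in WT (log2 fold change 1.08, SE 0.40). The other was Tank, the gene of an adaptor of the kinase TBK1, at 187.3 ± 21.5 CPM in MUT and 331.2 ± 118 CPM in WT (-0.82, SE 0.35). Rela, an NF-kappaB subunit gene, averaged 78.4 ± 42.2 CPM in MUT and 144.3 ± 65.1 CPM in WT (-0.88, SE 0.50), with overlap between the genotypes. Sting1, the gene of the adaptor the series is about, was named for that reason and had a log2 fold change of -0.55 (SE 0.38).

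A list of 8 genes for restraint of the response includes Usp18 and Isg15, which are also in the list of response genes below. Of the 8, 0 passed and 5 were fitted above 0 (49.4% of all genes were). All MUT libraries lay above WT for 1 gene of the 8 (5.39% of all genes). The median log2 fold change was 0.41. Usp18, an ISG15 protease that blocks signalling at IFNAR2, was that gene, at 251.5, 190.9 and 157.0 CPM in MUT libraries 1, 2 and 3 and 71.1, 104.6 and 75.2 CPM in WT libraries 1, 2 and 3 (log2 fold change 1.256, SE 0.38). Isg15, a ubiquitin-like modifier gene, averaged 142.3 ± 44.6 CPM in MUT and 79.1 ± 41.2 CPM in WT (0.85, SE 0.48). The phosphatase gene Ptpn2 averaged 66.9 ± 23.2 CPM in MUT and 35.8 ± 15.04 CPM in WT (0.90, SE 0.55).

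**Figure D4:**
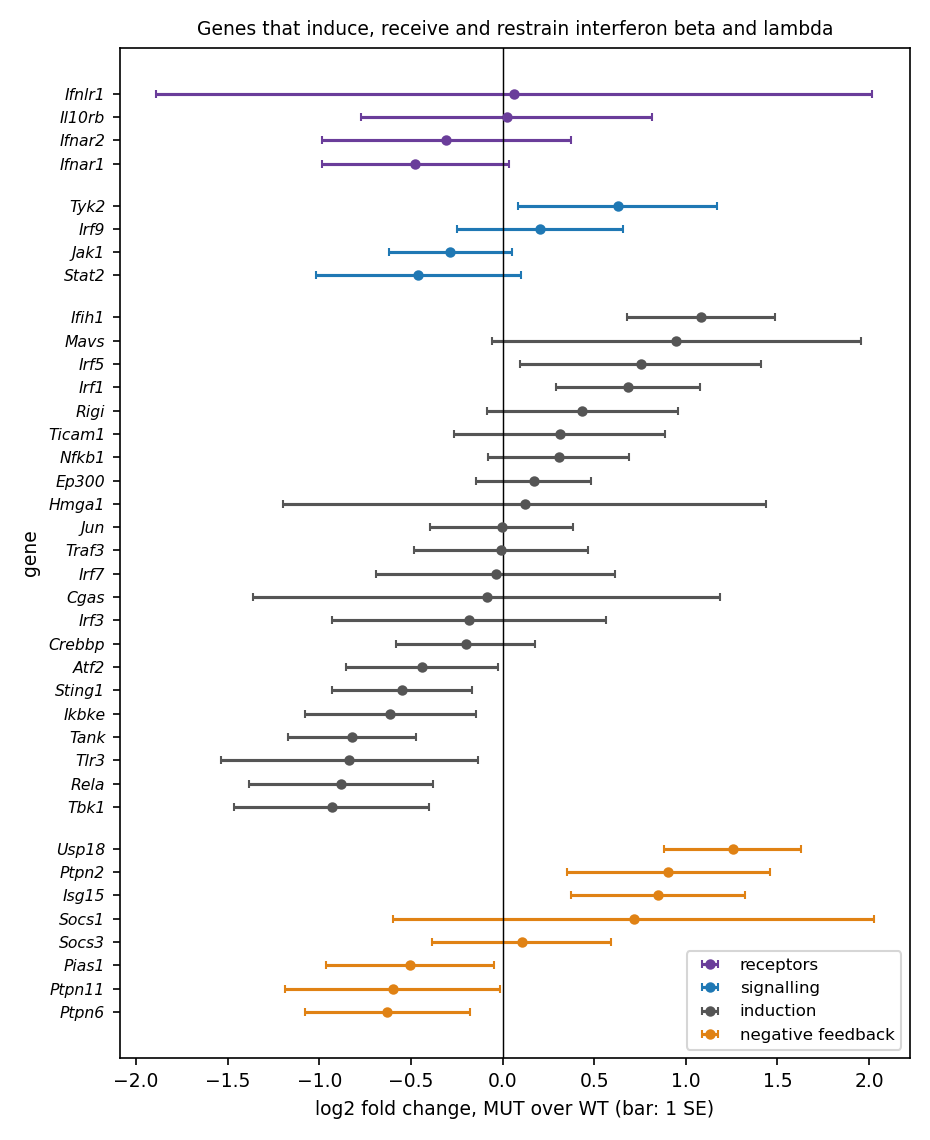
Log2 fold change of MUT over WT with 1 SE (edgeR) for 4 receptor, 4 signalling, 22 induction and 8 negative feedback genes, sorted within each list. Receptor and signalling bars mostly reach 0, and Ifih1 (1.08) and Usp18 (1.256) are the highest of the induction and feedback lists.

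Genes induced by either interferon were represented by 15 genes, of which 14 were fitted above 0 and 8 had all MUT libraries above WT, where the shares over all genes tested are 49.4% and 5.39%. None passed edgeR's test, and their median log2 fold change was 1.08. The lists share genes: Usp18 and Isg15 are also in the feedback list and Irf7 in the induction list. Usp18 is 1 of the 8, so it is counted in both lists. Rsad2, the viperin gene, and the oligoadenylate synthetase-like genes Oasl1 and Oasl2 had the smallest p, with log2 fold changes of 2.88 (SE 0.55), 1.89 (SE 0.45) and 1.23 (SE 0.26). edgeR without the filter called these 3 genes, and DESeq2 called Rsad2 and Ifit2, an interferon-induced antiviral gene. Higher levels of such genes in MUT were known when the list was chosen.

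The order of the libraries for the ligands was not that for the response. Averaged over the 15 genes, the mean log2 CPM was 7.40, 6.82 and 6.62 in MUT libraries 1, 2 and 3, and 5.635, 5.83 and 5.38 in WT libraries 1, 2 and 3. MUT library 1, with the lowest Ifnb1 and Ifnl2 of the MUT libraries, had the highest response level, and MUT library 2, with the highest Ifnb1, was between the others. MUT library 3, with the lowest response level of the MUT libraries, was also lowest for Ifnl3 (9.29 CPM) and for Ifnl2 plus Ifnl3 (16.6 CPM).

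**Figure D5:**
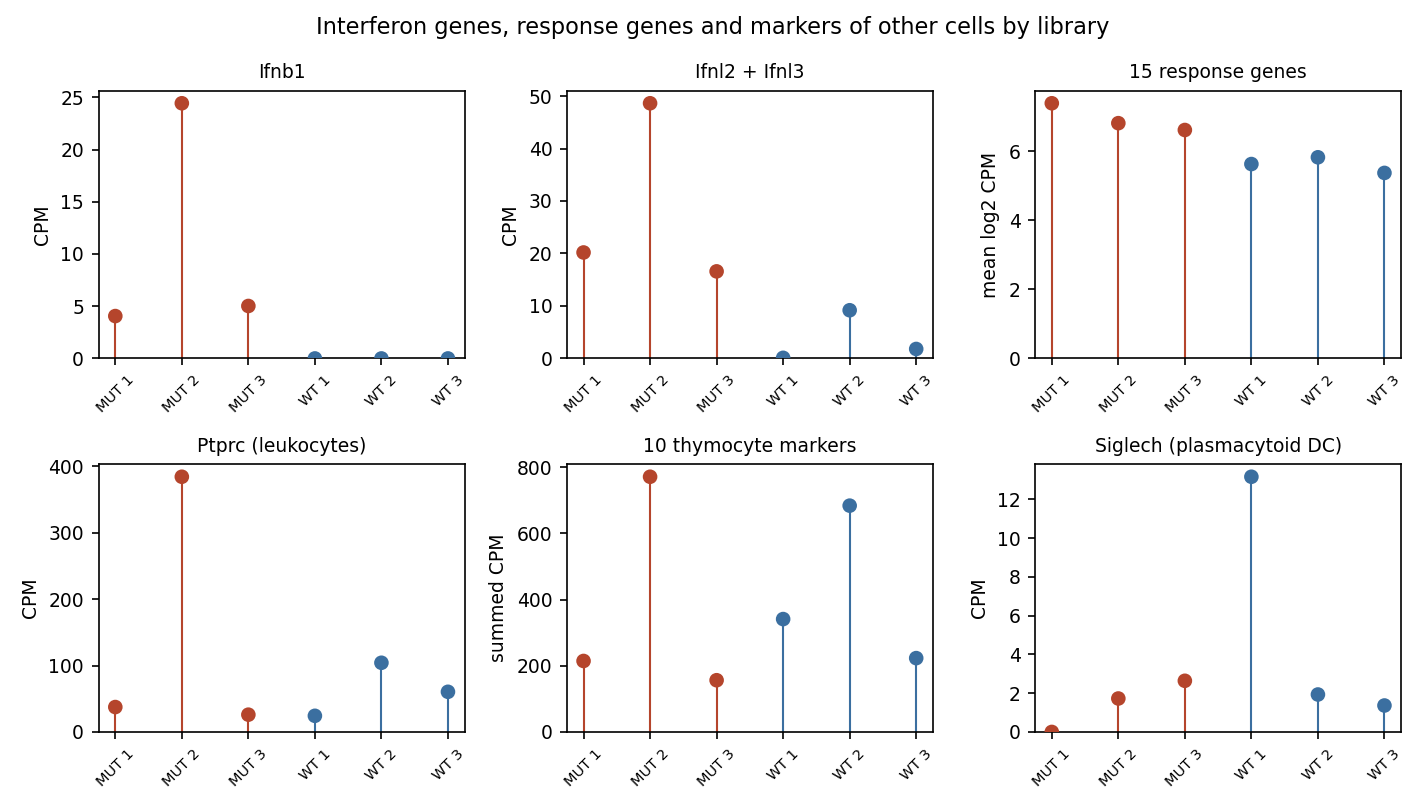
Values by library (MUT left, WT right) of Ifnb1, summed Ifnl2 and Ifnl3, the mean log2 CPM of 15 response genes, the leukocyte gene Ptprc, 10 thymocyte markers summed, and Siglech, a plasmacytoid dendritic cell gene. MUT 2 is highest for Ifnb1, the lambda pair, Ptprc and the thymocyte sum, while the response genes are highest in MUT 1.

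Markers of other cells that could be present in the sort were set beside the interferon genes. MUT library 2, highest for Ifnb1 at 24.4 CPM, was also highest for Ptprc, the pan-leukocyte phosphatase gene, with 384.4 CPM against 37.5 and 26.02 CPM in MUT libraries 1 and 3 and 24.3, 104.2 and 60.5 CPM in WT libraries 1, 2 and 3. The 10 thymocyte markers summed to 214.5, 771.2 and 156.3 CPM in MUT libraries 1, 2 and 3, and 341.1, 683.9 and 223.1 CPM in WT libraries 1, 2 and 3, and none of the 10 separated the genotypes. The B cell markers also summed highest in MUT library 2, at 80.1 CPM, and its share of mitochondrial counts was the highest. Mitochondrial genes took 16.0%, 21.3% and 9.14% of counts in MUT libraries 1, 2 and 3. In WT libraries 1, 2 and 3 they took 17.1%, 18.9% and 11.1%. The part of leukocytes or of the mitochondrial share in the interferon values was not tested.

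Plasmacytoid dendritic cells, a potent source of interferon in infection, have Siglech as a defining marker. It measured 0, 1.73 and 2.64 CPM in MUT libraries 1, 2 and 3, and 13.2, 1.93 and 1.36 CPM in WT libraries 1, 2 and 3. The 9 plasmacytoid markers summed to 1003, 1741 and 1534 CPM in MUT libraries 1, 2 and 3, and 970.6, 1771 and 1408 CPM in WT libraries 1, 2 and 3. Their orders differed. Ccr9 and Klk1 were highest in library 2 of each genotype, and Siglech was highest in MUT library 3 and WT library 1. None of the 9 separated the genotypes, and the part of these cells in the interferon values was not tested. Spib, which mTEC also express, gave 457.5 to 1177 CPM of these sums in MUT and 556.3 to 1033 CPM in WT. The 10 dendritic cell and macrophage markers summed to 530.9 to 1033 CPM in MUT and 595.4 to 1136 CPM in WT. Of the 10, 1 was higher and 1 lower in all MUT libraries (5.39% and 3.96% of all genes tested). Mertk was the higher, at 9.53, 4.93 and 10.4 CPM in MUT libraries 1, 2 and 3 and 0, 1.695 and 0.792 CPM in the WT libraries. Adgre1 was the lower, at 8.02, 1.725 and 12.25 CPM against 45.9, 30.5 and 13.95 CPM. Their part in the interferon values was not tested. Sums for B cells were 20.6 to 80.1 CPM in MUT and 24.1 to 49.0 CPM in WT, and for fibroblasts and endothelium 37.5 to 98.2 CPM in MUT and 63.4 to 139.6 CPM in WT. In bulk libraries, more producing cells and more transcript per cell cannot be told apart.

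Genes whose log2 CPM followed Ifnb1 most closely over the 6 libraries were Catspere2, Zdhhc22, Ppef1, Mrgprx1 and the antisense gene Gm12781, with Pearson correlations of 0.995 to 0.999. Catspere2 encodes a part of a sperm calcium channel and Mrgprx1 a receptor of sensory neurons. All 5 were low, with at most 91 counts in a library, and had 0 or 1 count in each WT library. Of 17169 genes compared, 141 (0.821%) had a correlation above 0.9 with Ifnb1.

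Closest to Ifnl2 plus Ifnl3 were Gm12185, the calcium release channel gene Ryr3, the iron-sulfur assembly gene Lyrm4, the antisense gene Gm16712 and the kinase gene Rps6ka3, at 0.991 to 0.996. Counts of Gm12185 were 137, 428 and 188 in MUT libraries 1, 2 and 3, and 0, 94 and 21 in WT libraries 1, 2 and 3. A correlation above 0.9 with the pair was found for 366 genes (2.13%). Ifnb1 itself correlated with the pair at 0.797. These correlations are descriptions over 6 libraries that share 2 genotypes, and the differences in depth and makeup between the libraries enter them.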

How the data were processed

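The authors deposited raw read counts per Ensembl gene ID, 1 column per library, with no normalization. Per the labels' protocols, cDNA was made from mTEC RNA with Nugen Ovation and turned into libraries with Nextera XT. The build GRCm38 and the tools STAR 2.4.2a and DESeq2 1.26.0 are named, without their roles, per the submitters' processing notes. Not given in the sources used here are the counter, its annotation and its strand setting. Gene symbols matched 42462 of 43432 IDs, and coordinates and exon lengths are those of GENCODE M21. Every pair of libraries differed by more than sampling noise (lowest chi-square per degree of freedom 84.4).

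Genes that passed filterByExpr (17172) were tested for MUT minus WT by the quasi-likelihood test of edgeR 4.0.16 in R 4.3.3. Robust dispersions, TMM scaling and Benjamini-Hochberg adjustment were used. The script was tested on data simulated with low dispersion and large planted changes. That does not measure its power at the spread between these libraries. Log2 CPM used a prior count of 2. Alternatives were a replicate block, DESeq2 size factors, no filter, DESeq2 1.42.0, 2 other denominators and each library left out. Members, lists and rules were chosen with earlier results of these data known. Named genes were the ligands counted, the receptor and signalling genes, the 3 members with the smallest p of longer lists, the nearest tested neighbours and the 5 closest genes by correlation. Others (Lct, Dhrs2, Ifit2, Stat2 by library, markers) were chosen after their values were seen. One gene of the signalling and response lists is not reported here and is left out of their counts and medians.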

Additional observations from a re-analysis of the deposited data

How the results depend on the processing

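The pooled MUT over WT ratios of Ifnb1, Ifnl2, Ifnl3 and the lambda sum stayed above 1 under DESeq2 size factors, deposited totals, non-mitochondrial totals and each library left out. For each of them every MUT library lay above every WT library, so leaving out a library could not bring a ratio under 1. The members were chosen on these counts, and the ranges that follow show only how far each ratio moved. On the log2 scale the bound for Ifnb1 ranged from 6.56 (without MUT replicate 2) to 8.18 around 7.75 as libraries were left out, Ifnl2 from 2.87 to 4.49 around 3.35, Ifnl3 from 1.97 to 4.73 (without WT replicate 2) around 2.69, and the sum from 2.23 to 4.67 around 2.81. The count of 0 genes called by edgeR held under DESeq2 size factors and with any 1 library left out (0 to 0). It became 73 without the filter on low counts and 116 with DESeq2. Of the pathway genes, 0 passed, against 3 without the filter and 2 with DESeq2. The cause was not tested. The median over all genes was -0.01 on the log2 scale, against 0.16 without the filter and 0.15 with DESeq2.

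Medians of lists with no call ranged with 1 library left out from -0.51 to 0.45 for receptors, -0.22 to 0.32 for signalling, -0.30 to 0.26 for induction, -0.03 to 0.54 for feedback and 0.72 to 1.34 for response genes. Source names of same-numbered libraries end alike in both genotypes, and the labels do not say what the ending means. Deviations of same-numbered libraries correlated at 0.0593 to 0.127, and 6 of 6 libraries matched their own number best across genotypes. With the replicate block edgeR called 1 gene, which was in none of the lists. Depth limits what can be said of WT, where a level of Ifnb1 under 0.132 to 0.172 CPM was not detectable.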
